A study of Mus musculus with 6 samples.

Results

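The 10 genes described here (Pax6, Sox2, Sox9, Emx2, Hopx, Nes, Vim, Prom1, Fabp7 and Slc1a3) are markers of apical progenitors, chosen by their symbols among the 17920 genes listed in an RNA-seq table of cultured mouse cortical cells. All 10 were listed and all 10 passed the filter on low counts, among 13669 genes tested. The cells came from the cortex of E13.5 embryos and were infected with a lentivirus carrying a short hairpin RNA, either a control (the WT group of the labels, 3 libraries) or one against Ybx1 (the KD group, 3 libraries). Both groups were therefore cultured, infected and selected with puromycin, which kills cells that did not take up the virus, and both were compared here as mixed populations of progenitors, neurons and glial precursors. Neither the mouse strain nor the hairpin carried by each KD library is given in the labels.

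Radial glial cells (RGCs) are the stem cells of the embryonic cortex. They line the ventricle, send a long fibre to the surface of the brain, divide to renew themselves, and give rise to intermediate progenitors (IPs) and neurons. Their identity is held by transcription factors such as Pax6, Sox2, Sox9 and Emx2, and they are recognised by the intermediate filament proteins nestin and vimentin, by prominin at the apical membrane, and by the glial proteins that Fabp7 and Slc1a3 encode. None of these genes is restricted to RGCs at every stage, since Sox9, Fabp7, Vim and Slc1a3 are also used by astrocytes and their precursors.

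Ybx1, the targeted gene, was at 618, 615 and 653 CPM (counts per 1000000, after normalisation of the library sizes) in WT replicates 1, 2 and 3 and at 98.3, 92.2 and 159 CPM in KD replicates 1, 2 and 3, so that 18.5% of the WT mean was left. Library totals lay between 16294635 and 16497505 estimated counts. The libraries held transcripts of cortical cells throughout, with Tbr1, a transcription factor gene of early cortical neurons chosen here after its values were seen, between 216 and 293 CPM. The defining markers of microglia and vessels were near 0: Aif1, Csf1r, Cx3cr1, P2ry12, Cldn5 and Cdh5 had at most 9 estimated counts in any library. Cells of the ventral forebrain and of the oligodendrocyte lineage did contribute, and the homeobox gene Nkx2-1 stood at 11.8 and 15.5 CPM in replicate 1 of WT and KD against 4.20 to 5.11 CPM in the other 4 libraries.

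Pax6 rose after Ybx1 knockdown, and the other 9 radial glia genes did not pass the test. Of the 10 genes, 1 was higher and 0 were lower in KD at an adjusted P under 0.05 (edgeR quasi-likelihood test with Benjamini-Hochberg adjustment over all genes tested), where 12% of all genes tested were higher and 11.9% were lower (24.0% in either direction). On log2(TPM + 1) these shares were 15.2% and 7.84%, again with 1 member higher and 0 lower. At an unadjusted P under 0.05, 2 members were higher (Pax6 and Sox9) and 0 were lower, against 37.9% of all genes in either direction. DESeq2 and limma-voom each called 1 member higher and 0 lower. Among all genes tested, DESeq2 called 10.3% higher and 10% lower, and limma-voom called 12% higher and 11.8% lower. The fold change was above 1 for 9 of the 10 genes, and the median log2 fold change of the members was 0.25 against 0.00 for all genes tested.

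Libraries with the same replicate number deviated together over all genes, so the comparison was also made with the number as a block. The block keeps fold changes nearly as they are and removes the spread that both libraries of a pair share. It raised the count of members from 1 to 6 higher (Pax6, Sox2, Sox9, Hopx, Vim and Prom1) with 0 lower, where 18.6% of all genes tested were higher and 18.1% lower (36.6% in either direction). Emx2, Nes, Fabp7 and Slc1a3 did not pass in either fit. The members' median log2 fold change was 0.24 with the block. As RNA was taken from whole cultures, more cells of a type and more RNA per cell cannot be told apart.

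**Figure D1:**
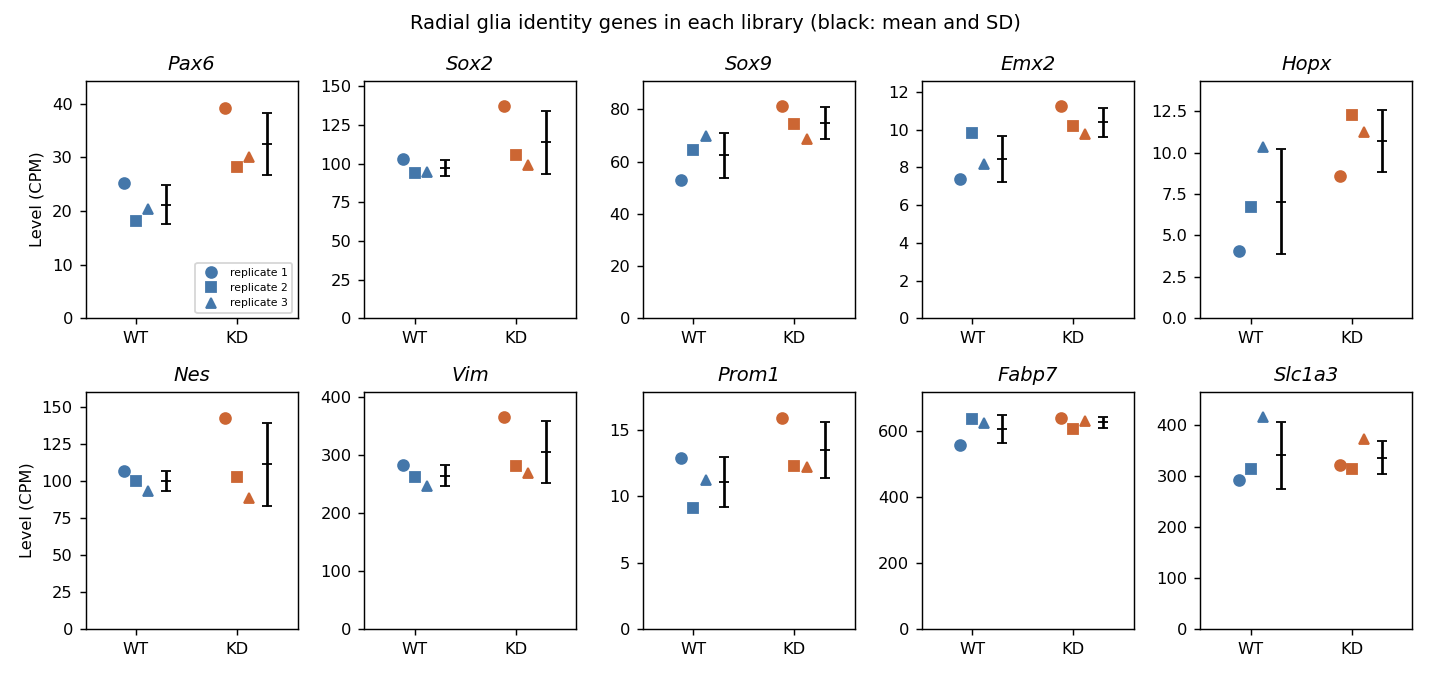
Level of each gene in CPM (vertical axis, starting at 0) in the WT and KD libraries, with 1 symbol per replicate number and the mean and SD of each group in black. Pax6 is the gene whose KD libraries all lie above all WT libraries, and KD replicate 1 is the highest library in 8 of the 10 panels.

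Pax6, a paired-box and homeobox transcription factor that sets the dorsal identity of the cortex and drives neurogenesis from RGCs, rose after knockdown. It was at 25.1, 18.1 and 20.4 CPM in WT replicates 1, 2 and 3 and at 39.1, 28.2 and 30.0 CPM in KD replicates 1, 2 and 3. All KD libraries lay above all WT libraries, which held for 1 of the 10 members and for 21.0% of all genes tested; the reverse, all KD below all WT, held for 0 members and for 20.6% of genes. The mean went from 21.2 ± 3.59 to 32.5 ± 5.84 CPM (SD, n = 3 each), 1.53-fold, and the log2 fold change was 0.61 (SE 0.15, adjusted P = 0.0185). With the replicate block its adjusted P was 1.2e-05. Within pairs the KD library held 1.56, 1.56 and 1.47 times the Pax6 of its WT partner, the narrowest span among the 10 genes. Pax6 lost its call without WT replicate 2 (adjusted P = 0.0738) and over all alternatives its adjusted P lay between 1.2e-05 and 0.108, with log2 fold changes from 0.46 to 0.76.

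The counts of Pax6 were fractional in all 6 libraries, for example 414.44 in WT replicate 1 and 650.56 in KD replicate 1, whereas the other 9 members had whole counts throughout. Fractions arise where reads are divided between genes that share sequence, which touched 9.07% of the genes tested in all 6 libraries. The gene lies on the plus strand of chromosome 2 from 105668900 to 105697364 (GRCm38), and no exon of another gene in the GENCODE annotation overlaps its exons, so the source of the fractions was not found here and its values are less certain than those of the other members.

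Upstream sequences are shown for Pax6, which passed in both fits, for Sox2 and Hopx, which passed with the block, and for Slc1a3, which passed in neither, to set promoters of members with unlike behaviour side by side. Each runs 5′ to 3′ over the 250 bases before a RefSeq start site (GRCm38.p6), in windows without annotated exons. Capitals mark matches on either strand to a CCAAT box, to a TATA box searched as TATAAA, to a GC box searched as GGGCGG, to a site of the Notch effector RBPJ searched as TGGGAA, to a Hes site searched as CACNAG, or to a Sox site searched as ACAAAG. The first of these is of interest because the Y-box proteins were named for binding to a promoter element with this sequence inverted.

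Pax6, chr2:105668646-105668895, plus strand: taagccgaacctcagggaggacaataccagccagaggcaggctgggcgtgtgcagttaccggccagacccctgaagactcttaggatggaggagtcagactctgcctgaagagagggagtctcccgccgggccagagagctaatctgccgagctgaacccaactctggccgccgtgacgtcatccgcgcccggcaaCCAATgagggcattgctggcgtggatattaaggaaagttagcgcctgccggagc
Sox2, chr3:34649745-34649994, plus strand: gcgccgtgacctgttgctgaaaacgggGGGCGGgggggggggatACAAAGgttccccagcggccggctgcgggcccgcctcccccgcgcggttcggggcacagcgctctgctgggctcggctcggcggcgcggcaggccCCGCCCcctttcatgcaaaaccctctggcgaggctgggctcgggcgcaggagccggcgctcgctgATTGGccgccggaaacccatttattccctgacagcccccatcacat
Hopx, chr5:77115124-77115373, minus strand: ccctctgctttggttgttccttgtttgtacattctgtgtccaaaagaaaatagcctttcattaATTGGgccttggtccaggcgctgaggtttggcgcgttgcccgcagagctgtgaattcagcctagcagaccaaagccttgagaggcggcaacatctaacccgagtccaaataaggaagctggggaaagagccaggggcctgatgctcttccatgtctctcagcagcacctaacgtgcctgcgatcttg
Slc1a3, chr15:8710808-8711057, minus strand: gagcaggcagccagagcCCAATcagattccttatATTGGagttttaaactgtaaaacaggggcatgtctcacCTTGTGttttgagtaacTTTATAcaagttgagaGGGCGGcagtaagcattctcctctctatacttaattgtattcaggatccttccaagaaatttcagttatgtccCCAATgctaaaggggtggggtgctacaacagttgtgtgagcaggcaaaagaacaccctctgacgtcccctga

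In these windows the leftmost base of CCAAT or of its reverse complement lay 54 bases upstream of the start in Pax6, 46 in Sox2, 187 in Hopx, and 233, 216 and 72 in Slc1a3. Windows were available for 9 of the 10 members (12 windows, with Sox9 lacking one), and CCAAT occurred in 9 of the 12, from 8 of the 9 genes, against 33.8% of all 32851 windows of the same length. The single exception was Nes, and the match was present in members that changed and in those that did not. A GC box was found in Sox2 and Slc1a3 among the sequences shown and in 32.7% of all windows. A TATA box occurred in Slc1a3, on the reverse strand, among the sequences shown, and in 12.4% of all windows. Among the members' windows not shown, Vim had one 32 bases upstream. The median GC content of the members' windows was 58% against 52.4% for all windows.

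Sox2 and Sox9 encode HMG-box transcription factors, the first a keeper of the neural stem cell state and the second a factor of stem cell maintenance and later gliogenesis. Sox2 (chr3:34650405-34652461, plus strand) lies inside the span of the noncoding gene Sox2ot without sharing exonic bases with it, and Sox9 lies at chr11:112782224-112787760 on the plus strand. Sox2 was at 103, 93.8 and 94.3 CPM in WT and at 137, 105 and 99.2 CPM in KD replicates 1, 2 and 3. Its KD libraries 1 and 2 were above all WT libraries and KD replicate 3 fell within the WT range. The log2 fold change was 0.23 (SE 0.11, adjusted P = 0.162), and with the block it passed at 0.22 (adjusted P = 0.0118). Leaving out KD replicate 1 lowered it to 0.08. Sox9 was at 52.9, 64.6 and 69.8 CPM in WT and at 81.2, 74.3 and 68.8 CPM in KD. Its pair 1 showed the greatest difference, 1.54-fold, whereas KD replicate 3 was 0.986 times its partner. The log2 fold change of Sox9 was 0.26 (SE 0.10, adjusted P = 0.0943) and 0.26 with the block (adjusted P = 0.028). Without WT replicate 3 it passed also unblocked, at 0.35 (adjusted P = 0.0415).

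Emx2 and Hopx are homeobox genes, the former a regulator of cortical area and progenitor growth and the latter an atypical homeodomain gene known as a marker of outer radial glia. They lie at chr19:59458372-59465357 (Emx2, plus strand) and chr5:77086988-77115121 (Hopx, minus strand). Emx2 was at 7.40, 9.81 and 8.16 CPM in WT and at 11.2, 10.2 and 9.76 CPM in KD. The groups overlapped by a narrow margin, with WT replicate 2 just above KD replicate 3. Its log2 fold change was 0.30 (SE 0.13, adjusted P = 0.133), and 0.30 with the block (adjusted P = 0.0737). An antisense gene, Emx2os, shares 8.79% of the exonic bases of Emx2, and reads of the 2 strands cannot be separated because strand-aware counting is not stated.

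Hopx had nearly the same fold as Pax6 with far more spread. It was at 4.07, 6.73 and 10.3 CPM in WT and at 8.60, 12.3 and 11.2 CPM in KD replicates 1, 2 and 3. WT replicate 3 was above KD replicate 1, and the WT libraries differed from each other by a coefficient of variation of 44.7%, the widest among the members. The mean went from 7.04 ± 3.15 to 10.7 ± 1.89 CPM (SD, n = 3 each), which on the log2 scale was 0.60 (SE 0.28, adjusted P = 0.154). Within pairs the ratio was 2.11, 1.82 and 1.08, and with the block the change passed at 0.64 (adjusted P = 0.00582). Without WT replicate 3 it was 0.99 and passed unblocked as well (adjusted P = 0.0233), and without WT replicate 1 it was 0.33 (adjusted P = 0.317). The antisense gene Hopxos overlaps 27.2% of the exonic bases of Hopx in the annotation.

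**Figure D2:**
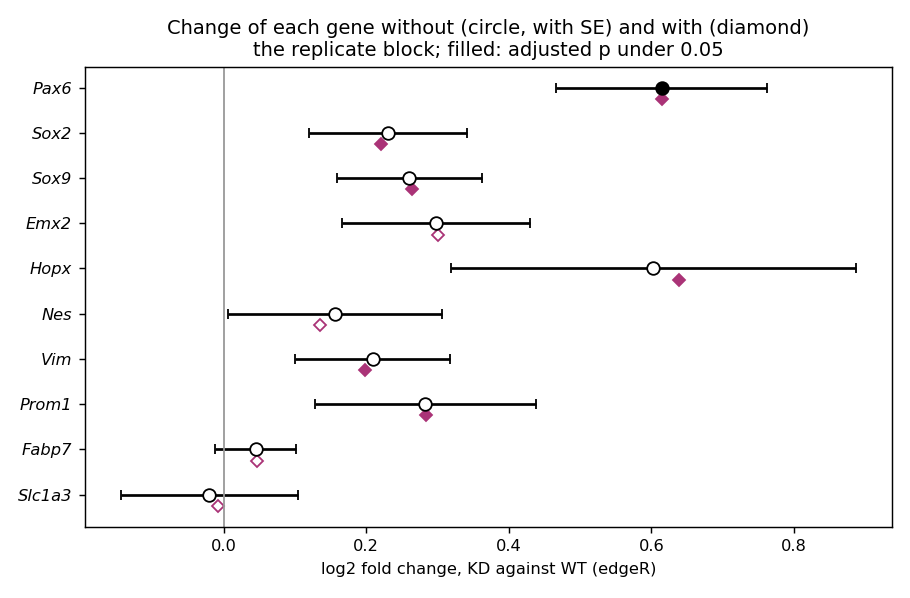
Log2 fold change of KD against WT (horizontal axis) for each gene in the fit without the replicate block (circles, with SE) and with it (diamonds), filled where the adjusted P was under 0.05. Pax6 is filled in both, Sox2, Sox9, Hopx, Vim and Prom1 with the block alone, and the change of Hopx has the widest error.

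Nes and Vim encode nestin and vimentin, the intermediate filament proteins of the radial fibre, and lie at chr3:87971078-87980451 and chr2:13573927-13582826, both on the plus strand. Nes was at 107, 99.6 and 92.9 CPM in WT and at 142, 103 and 88.1 CPM in KD. KD replicate 1 stood above all other libraries and KD replicate 3 below all of them, so that the KD group enclosed the WT group. The log2 fold change of Nes was 0.16 (SE 0.15, adjusted P = 0.486) and fell to -0.06 without KD replicate 1. Vim was at 283, 261 and 247 CPM in WT and at 365, 280 and 269 CPM in KD, with KD replicate 1 alone above the WT range. Its log2 fold change was 0.21 (SE 0.11, adjusted P = 0.195), or 0.06 without KD replicate 1. With the block Vim passed at 0.20 (adjusted P = 0.0109) and Nes did not (0.13, adjusted P = 0.173). Each KD library held more Vim than its partner, by 1.29, 1.07 and 1.09 times.

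Prom1 encodes prominin (CD133), a membrane protein of the apical surface and the primary cilium, and was the least abundant member per transcript length. It was at 12.9, 9.13 and 11.3 CPM in WT and at 15.9, 12.3 and 12.2 CPM in KD. WT replicate 1 lay above KD replicates 2 and 3, although every KD library exceeded its partner, by 1.24, 1.35 and 1.09 times. Its log2 fold change was 0.28 (SE 0.16, adjusted P = 0.215), and 0.28 with the block (adjusted P = 0.0454), close to the threshold. The gene lies at chr5:43993620-44102032 on the minus strand, and the antisense gene Gm16401 shares 5.91% of its exonic bases.

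The glial genes Fabp7 and Slc1a3, for the brain lipid-binding protein BLBP and the glutamate transporter GLAST, did not pass in either fit. They lie at chr10:57784881-57788450 (plus strand) and chr15:8634124-8710764 (minus strand). Fabp7 was at 559, 638 and 627 CPM in WT and at 641, 608 and 632 CPM in KD, and the groups covered much the same range. Its log2 fold change was 0.04 (SE 0.06, adjusted P = 0.601), the smallest error among the 10 genes. Slc1a3 was at 293, 315 and 417 CPM in WT and at 322, 314 and 373 CPM in KD. Replicate 3 was highest in both groups and WT replicate 3 was the highest of all. The log2 fold change of Slc1a3 was -0.02 (SE 0.12, adjusted P = 0.925), and its sign depended on the scaling, being 0.00 by total counts and 0.04 on TPM.

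Taking the libraries pair by pair, the members differed most between KD and WT in replicate 1. All 10 genes were higher in KD in pair 1, with a median log2 ratio of 0.41. In pair 2 it was 8 of 10, with a median of 0.13, and in pair 3 it was 7 of 10, with a median of 0.10. Over all genes tested, between 49.3% and 50.3% were higher in KD in a pair and the medians were 0.00 in all pairs. Pair 1 gave the largest ratio for 8 of the 10 genes, the exceptions being Pax6 and Prom1. For 6 members KD was higher in all 3 pairs (Pax6, Sox2, Emx2, Hopx, Vim and Prom1), as for 31.0% of all genes tested, and for 0 members it was lower in all 3, as for 30.7%. Ventral forebrain genes also set replicate 1 apart, with summed levels of 661 TPM in WT and 765 TPM in KD replicate 1 against 464 to 596 TPM in the other 4 libraries. Proliferation genes summed to 572 TPM in KD replicate 1 and to 463 and 454 TPM in the other KD libraries, against 320 to 373 TPM in WT. Their part in the differences was not tested. Without pair 1, Pax6 was at 0.60 on the log2 scale (adjusted P = 0.00422) and was the 1 member that passed, where 7.49% of all genes were higher. Hopx was at 0.46, Prom1 at 0.27, Emx2 at 0.15, Sox2 at 0.12, Vim at 0.11 and Sox9 at 0.09. Nes was at -0.01, Fabp7 at -0.03 and Slc1a3 at -0.09.

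**Figure D3:**
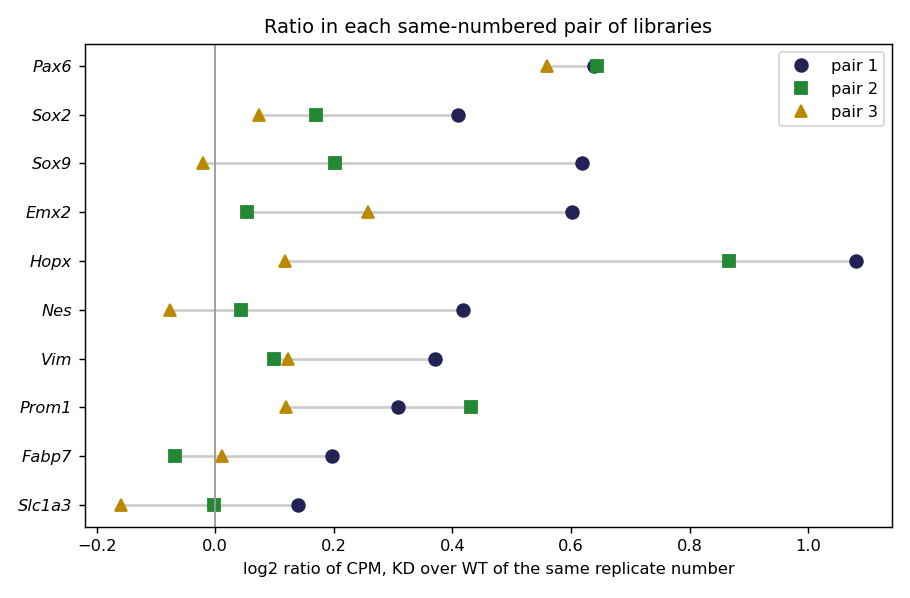
Log2 ratio of CPM of KD over WT (horizontal axis) in each same-numbered pair of libraries, with 1 symbol per pair and a grey line over their span. The symbols of Pax6 lie together at 0.64, 0.64 and 0.56, while those of Hopx run from 0.12 to 1.08.

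Per transcript length the members spanned more than 2 orders of magnitude. On the TPM scale Fabp7 led with a WT mean of 2582 TPM and ranked 26th among all genes listed. Vim (340 TPM), Slc1a3 (173 TPM) and Sox2 (88.8 TPM) followed, each with a WT range apart from its neighbours. Nes (33.9 TPM) and Sox9 (32.2 TPM) overlapped, as did Hopx (17.1 TPM) with Pax6 (12.2 TPM), and Emx2 (7.58 TPM) with Prom1 (6.35 TPM). In KD the order was the same except that Sox9 (40.0 TPM) and Nes (39.3 TPM) changed places within their spread.

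Across the 6 libraries the members fell into patterns that differed from each other. Log2 CPM of Sox2 and Vim had a Pearson correlation of 0.987, Nes and Vim of 0.940, and Pax6 and Prom1 of 0.925. Slc1a3 ran against these, with -0.491 to Nes and -0.436 to Vim, and Hopx was closest to Sox9 at 0.799. In all, 9 of the 45 pairs of members were above 0.8 and 9 were below 0. These values describe libraries that share group, pair and depth, and 6 points fix a correlation loosely. Among the 11439 genes with a mean of at least 5 CPM, the pattern nearest to Pax6 was that of Grb10 (0.997), nearest to Sox2 that of Tgif2 (0.993), and nearest to Hopx that of Sez6 (0.998). Each is the highest value over all these genes, and no member had a top match under 0.970 (Fabp7 with Rhno1).

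Other apical progenitor genes were compared to see how far the members stand for their class. To set beside the counts in this and the following lists, 12% of all genes tested were higher and 11.9% lower without the block. With the block these shares were 18.6% and 18.1%. Whether a list exceeds these shares was not tested. Of 18 regulators and surface genes, 8 were higher and 1 was lower in KD past the threshold, with a median log2 fold change of 0.30. The largest rise was in Gli3, a mediator of hedgehog signalling that keeps dorsal progenitors, from 16.6 ± 2.19 to 33.9 ± 7.69 CPM (log2 fold change 1.03, SE 0.16, adjusted P = 0.0031). It was at 16.8, 14.3 and 18.6 CPM in WT and at 42.5, 31.7 and 27.6 CPM in KD, without overlap. Ednrb, an endothelin receptor gene of glial precursors, fell from 117 ± 14.1 to 90.0 ± 7.54 CPM (-0.38, adjusted P = 0.02). Among the other genes that rose, named after their values were seen, were the transcriptional regulator genes Lhx2, Sox1, Sox21, Hes1 and Id4 and the gene Veph1, which was under 5 CPM in all libraries.

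Of 8 genes of the apical junction and of cell polarity, 4 rose and 0 fell by edgeR (median 0.22). For this and the following lists, each count of 0 in the fit without the block was also 0 there at an unadjusted P under 0.05. Ctnnb1, for beta-catenin, changed most among those that passed, from 594 ± 33.0 to 715 ± 11.2 CPM (0.27, SE 0.05, adjusted P = 0.0062). Of 7 outer radial glia genes, 2 rose and 0 fell (median 0.13). With the block, 5 junction and polarity genes and 3 outer radial glia genes were higher, and 0 of either list were lower. Tnc, for the matrix protein tenascin C, rose from 210 ± 33.7 to 320 ± 27.9 CPM (0.61, SE 0.11, adjusted P = 0.0053), which equals Pax6 to 2 decimals on the log2 scale.

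Of 9 proliferation genes 7 rose and 0 fell (median 0.49), where 12% of all genes tested rose and 11.9% fell. Mki67 rose the most, at 0.65. Among 9 tested IP genes (10 listed), 5 rose and 0 fell (median 0.37), and the proneural gene Neurog2 rose most, at 1.58. Neuronal genes were divided, with 2 of 11 higher and 2 lower (median 0.08). Neurod2, of young projection neurons, had the largest rise among those that passed (0.46, adjusted P = 0.0162) and Syt1, for a synaptic vesicle protein, the largest fall (-0.36, adjusted P = 0.0101). With the block, 9 proliferation genes, 7 IP genes and 5 neuronal genes were higher, and 0, 0 and 2 were lower. The radial glia members, with a median of 0.25, lay between neuronal and IP genes. So did the apical regulators and surface genes (0.30), junction and polarity (0.22), outer radial glia (0.13) and ventral forebrain genes (0.30).

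**Figure D4:**
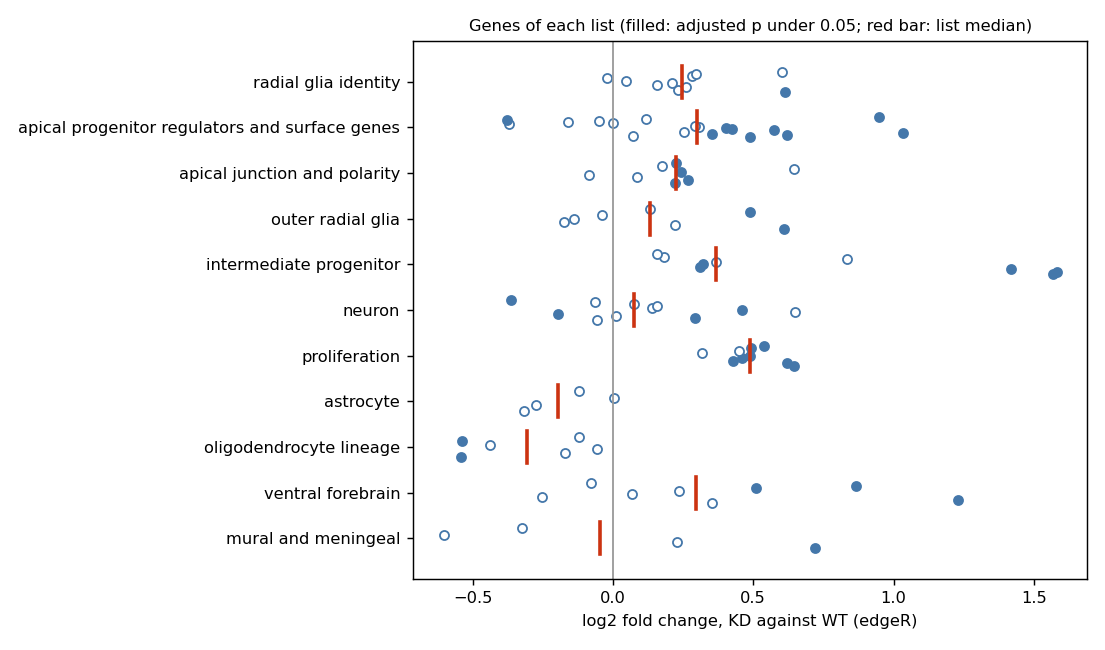
Log2 fold change of KD against WT (horizontal axis) of every tested gene in each list with more than 2 tested genes (endothelial and microglial genes are not drawn), filled where the adjusted P was under 0.05, with the list median as a red bar. Medians range from -0.30 in the oligodendrocyte lineage to 0.49 in proliferation genes, and that of the radial glia identity genes is 0.25.

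Pax6 was also set against an IP gene and a neuronal gene by ratios within each library, which move with Pax6 itself. On its own, Eomes rose by 1.57 on the log2 scale (adjusted P = 0.00813), whereas Tubb3 was at -0.06 (adjusted P = 0.699), beside 0.61 for Pax6. Ratios to other members, such as Fabp7 (0.04), Slc1a3 (-0.02) and Nes (0.16), were not computed. The ratio of Eomes, which encodes the IP marker Tbr2, to Pax6 on the TPM scale was 0.663, 0.376 and 0.515 in WT and 1.20, 0.956 and 0.891 in KD replicates 1, 2 and 3. All KD libraries were above all WT libraries, and the ratio was 1.996 times as high in KD (log2 difference 0.997, SE 0.27, exact permutation test, two-sided, P = 0.1). The ratio of the neuronal tubulin gene Tubb3 to Pax6 was 111, 170 and 170 in WT and 67.9, 106 and 111 in KD, with the lowest WT library (111.09) just above the highest KD library (111.01). It was 0.629 times as high in KD (log2 difference -0.67, SE 0.31, exact permutation test, two-sided, P = 0.1) and lower in KD in all 3 pairs. With 3 libraries against 3, no P under 0.1 can be reached, so neither ratio could pass the threshold.

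**Figure D5:**
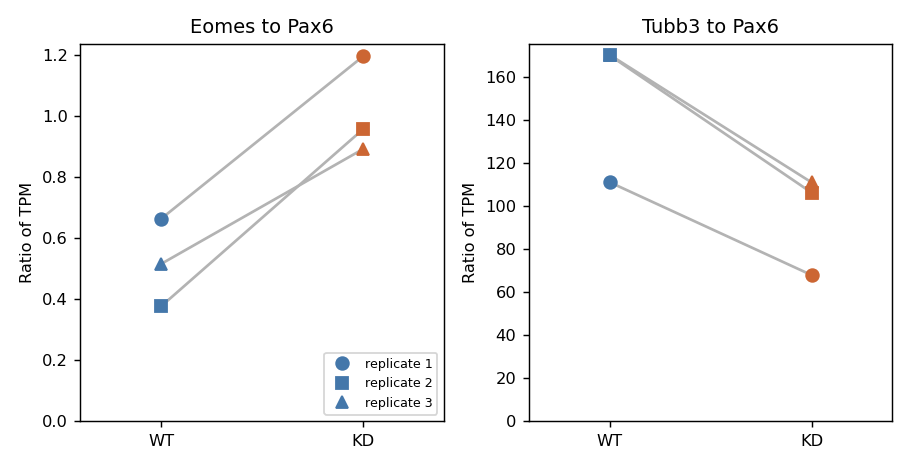
Ratio of TPM of Eomes to Pax6 (left) and of Tubb3 to Pax6 (right), on vertical axes that start at 0, with grey lines joining WT and KD libraries of the same replicate number. Eomes to Pax6 runs from 0.376 to 0.663 in WT and from 0.891 to 1.20 in KD, and Tubb3 to Pax6 falls along every line.

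Markers of other cells were set beside these values, because several members are shared with glia. Of 4 tested astrocyte genes (6 listed), 0 passed in either direction (median -0.20), and their sum lay between 82.8 and 87.3 TPM in WT and between 80.3 and 91.4 TPM in KD. Of 6 oligodendrocyte lineage genes, 2 fell and 0 rose (median -0.30), or 4 and 0 with the replicate block. Olig1, a lineage transcription factor, fell from 197 ± 27.6 to 135 ± 16.6 CPM (-0.54, adjusted P = 0.0105). Of 8 ventral forebrain genes, 3 rose and 0 fell (median 0.30), with Dlx2, a regulator of interneuron precursors, at 1.23 (adjusted P = 9.6e-04). With the block 4 of these ventral genes were higher and 1 was lower, Gad1 (-0.24, edgeR adjusted P = 0.00165). Endothelial genes summed to between 0.87 and 1.56 TPM over all libraries, and 0 of 2 tested genes passed. Mural and meningeal genes summed to between 7.06 and 9.42 TPM over all libraries, with Pdgfrb, a receptor gene of pericytes, at 0.72 (adjusted P = 0.0318) as the 1 gene of 4 that rose.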

How the data were processed

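RNA-seq of cultured E13.5 cortical cells comprised 3 WT and 3 KD libraries, grouped and numbered by their titles; columns named Ctrl were assigned to the WT titles of the same number. The authors sequenced mRNA on the DNBSEQ platform. The submitters' processing notes name HISAT2 2.2.1, Bowtie2 2.4.5, RSEM 1.3.1 and GRCm38 (mm10), without their roles, and the gene annotation is not given in the sources used here. The authors deposited estimated counts per gene, written with 2 decimals and whole (within 0.000001) for 89.3% to 89.9% of values, and TPM, which divides by transcript length and sums to 1000000 per library. The other 12 columns, FPKM values and group averages, were not used.

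Counts were rounded to whole numbers (the design had foreseen whole counts) and compared in edgeR 4.0.16 under R 4.3.3 (TMM, filterByExpr with a minimum count of 10, quasi-likelihood F-test, two-sided), adjusted over 13669 genes by the Benjamini-Hochberg method, with a threshold of 0.05. SE was derived from the estimate and its F statistic, as |log2 ratio| / sqrt(F). The coefficient of variation between libraries was 7.69%, and 4.71% with the replicate block. DESeq2 1.42.0 and limma 3.58.1 gave alternatives. Deviations from the group means correlated over genes at 0.41, 0.37 and 0.23 between libraries of the same number and between -0.30 and -0.02 otherwise. All of the former exceed 0.1, so the numbers were taken to pair the libraries, although the labels do not say what they mark. Because each group was centred on its own mean, the negative values follow largely from the positive ones and are no separate evidence of pairing. The fit without the block stayed the principal one.

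The members and gene lists were chosen with earlier results of these data known. All members were named, and of each other list the largest rise and fall that passed, unless said otherwise. Gene positions are from GENCODE M21 (GRCm38) and promoters from RefSeq (GRCm38.p6), each searched on both strands for 6 motifs. The methods speak of independent replicate experiments, while the labels do not say whether libraries came from separate cultures; if they did not, P-values measure technical spread. The test was checked on simulated data. Some genes are not reported here.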

Additional observations from a re-analysis of the deposited data

How the results depend on the processing

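The fits without a pair of libraries were chosen after seeing the data, and causes were not tested beyond the fewer libraries or stricter threshold that a setting brings. With 1 member higher in the principal fit, the count was 6 with the replicate block, 0 at an adjusted P under 0.01, 0 without pair 2, and from 0 (without WT replicate 2) to 3 (without WT replicate 3: Pax6, Sox9 and Hopx) when 1 library was left out; the count of members lower was 0 throughout. Pax6 did not pass without WT replicate 2 (adjusted P = 0.0738), pair 2 (0.108) or pair 3 (0.0634). Over all genes, 1646 were higher and 1631 lower, or 2539 and 2470 with the block, 629 and 634 at an adjusted P under 0.01, 1025 and 944 without pair 1, and 135 and 93 without pair 2. Leaving out 1 library gave 779 to 1612 higher and 797 to 1583 lower. The fewest were called without WT replicate 2 (5.65% of genes tested higher and 5.78% lower). The most were called without WT replicate 3 (11.7% higher and 11.5% lower). On log2(TPM + 1) 2076 were higher and 1072 lower and on log2(TPM + 0.1) 2076 and 1063, so that 65.9% and 66.1% of calls were higher against 50.2%, with the median of all genes shifted to 0.05.

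The members that changed sign passed in no fit. Slc1a3 (-0.02) was at 0.0030 by total counts, at 0.045 and 0.045 on log2(TPM + 1) and log2(TPM + 0.1), at 0.069 without pair 3 and between -0.12 and 0.15 without 1 library. Nes (0.16) was at -0.012 without pair 1, and between -0.064 (without KD replicate 1) and 0.30 without 1 library. Fabp7 (0.04) was at -0.027 without pair 1, and between -0.011 (without WT replicate 1) and 0.080 without 1 library. Among the changed calls not yet named, Sox9 passed without pair 3 (0.41, adjusted P = 0.0361). The log2 differences of the Eomes and Tubb3 ratios kept their sign under every alternative, from 0.78 to 1.19 and from -0.87 to -0.44 without 1 library. The fewest estimated counts of Hopx and Emx2 in a library were 67 and 122.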
